A study of Mus musculus with 36 samples.

Results

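The alpha-arrestins are adaptor proteins built on the arrestin fold that sort receptors and transporters at the cell surface. Most of them carry short PPxY motifs, which bring NEDD4-family ubiquitin ligases to a membrane protein, so that the protein is ubiquitinated and taken into the cell. Txnip also binds thioredoxin, the small protein that keeps thiols reduced, and together with Arrdc4 it lowers glucose uptake; both genes are known targets of MondoA and ChREBP, glucose-sensing transcription factors that bind DNA as pairs with Mlx. Arrdc1 recruits the ESCRT machinery and drives the budding of vesicles from the plasma membrane, Arrdc3 is known for the trafficking of cell surface receptors, and Arrdc2 is the least studied of the family.

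The genes examined were Arrdc1, Arrdc2, Arrdc3, Arrdc4 and Txnip, 5 of the 54532 genes in the count table, taken by name as a family. Arrdc3 was chosen by a measured value, its higher level with CCM in earlier results of these data, and the others were added as its relatives. Values of Arrdc3 in comparisons that hold CCM are therefore a description, and no test of them is given.

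CCM, the Core Circadian Modulator, is a small molecule that binds the PASB domain of the clock transcription factor BMAL1, and the study asked how it alters gene expression in macrophages at rest and after an inflammatory stimulus. Bone marrow-derived macrophages (BMDMs) were grown with MCSF for 7 days from C57BL/6 females aged 13 to 17 weeks. KO cells came from LysM-Cre;Bmal1 flox/flox mice (6 replicates), in which Cre is driven by a myeloid promoter, and WT cells from Bmal1 flox/flox littermates without Cre (3 replicates), so both genotypes carried the floxed alleles. Each genotype received DMSO (vehicle), 100 µM CCM, 100 nM LPS, a bacterial cell wall component, or LPS+CCM for 6 h, which gave 8 groups and 36 libraries. The study counts mice as its replicates, while the labels do not state whether libraries of the same number in different treatments came from the same mouse.

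Library totals ranged from 13469262 to 28288923 counts on genes. Expression levels are given as CPM (read counts brought to a common library size with TMM factors over the 36 libraries), and as CPM per kilobase of the deposited gene length where genes are compared with each other. Bmal1 (Arntl) was at 7.27 to 12.9 CPM in WT and at 2.13 to 10.7 CPM in KO libraries, ranges that overlapped. The study names incomplete penetrance of the deletion as a possibility, and reads outside the deleted part can also count towards the gene. The part of either in these values was not tested. The 4 libraries of KO replicate 6 stood apart, with a median correlation to their own group of 0.831 to 0.905, against 0.953 to 0.995 for the other 32. The summed level of all 8 neutrophil markers was 983 to 1023 CPM in KO replicate 6 and 323 to 877 CPM elsewhere, and that of the 5 T cell markers 2.26 to 3.63 CPM against 0.179 to 1.48 CPM. The 7 macrophage markers were present in every group (summed level 11240 to 19950 CPM), and the 5 fibroblast markers summed to 271 to 1449 CPM. With vehicle the macrophage sum had a median of 17120 CPM in WT (16120 to 18400). In KO replicates 1 to 5 the median was 12570 CPM (11240 to 17480). KO results are therefore also given without replicate 6. Because these are bulk samples, fewer cells of a type and less RNA per cell cannot be told apart.

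On the mouse build GRCm38, Arrdc1 (ENSMUSG00000026972) lies at chr2:24925352-24935252 on the minus strand and Arrdc2 (ENSMUSG00000002910) at chr8:70835129-70839720, also on the minus strand. Arrdc3 (ENSMUSG00000074794) lies at chr13:80883384-80896042 on the plus strand, Arrdc4 (ENSMUSG00000042659) at chr7:68736995-68749241 on the minus strand and Txnip (ENSMUSG00000038393) at chr3:96557957-96561883 on the plus strand. Txnip shares 606 exon bases with the antisense gene Gm15441, which drew 103 counts over all 36 libraries. Arrdc3 spans 1700023H06Rik on the other strand, with 0 shared exon bases and 136 counts. Whether counting used strand is not given in the sources used here. How reads on the exon bases shared by Txnip and Gm15441 were assigned is therefore not known.

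The promoters of 3 members are shown: Arrdc3 and Arrdc4, whose levels differed most with LPS, and Txnip, a known target of the same factors as Arrdc4 that was lower with CCM at every replicate number. Each is the 250 bases before the RefSeq start site on GRCm38.p6, written in the direction of the gene, with capitals for every match of the motifs searched on both strands: CACGTG (the E-box that BMAL1 with CLOCK binds), the carbohydrate response element in its usual form (a pair of E-box-like elements 5 bases apart, which can overlap the E-box), GTAAACA (forkhead), CCAAT and TGACGTCA (cyclic AMP response). Arrdc3 is at chr13:80883134-80883383 (plus strand), Arrdc4 at chr7:68749239-68749488 (minus strand) and Txnip at chr3:96557707-96557956 (plus strand).
Arrdc3: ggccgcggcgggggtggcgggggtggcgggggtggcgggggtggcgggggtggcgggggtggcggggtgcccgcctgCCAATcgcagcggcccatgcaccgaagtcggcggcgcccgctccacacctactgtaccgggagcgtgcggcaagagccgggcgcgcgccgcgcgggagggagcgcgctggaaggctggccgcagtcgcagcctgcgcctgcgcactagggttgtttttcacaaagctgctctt
Arrdc4: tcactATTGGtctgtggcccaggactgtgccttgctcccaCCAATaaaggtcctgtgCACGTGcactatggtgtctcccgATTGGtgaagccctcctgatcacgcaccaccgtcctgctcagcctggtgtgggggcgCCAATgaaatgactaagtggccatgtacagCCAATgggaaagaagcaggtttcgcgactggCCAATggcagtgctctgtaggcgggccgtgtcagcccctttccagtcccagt
Txnip: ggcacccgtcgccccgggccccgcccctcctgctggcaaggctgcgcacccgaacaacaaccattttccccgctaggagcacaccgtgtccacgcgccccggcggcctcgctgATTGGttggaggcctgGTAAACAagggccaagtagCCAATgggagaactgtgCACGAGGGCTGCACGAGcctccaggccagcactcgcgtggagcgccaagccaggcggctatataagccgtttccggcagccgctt

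The Txnip window held 1 match of the searched form of the carbohydrate response element, 85 to 69 bases before the start. That form was present in 15 of 32851 windows of this length (0.0457%). The Txnip window also held 1 forkhead match (3.17% of windows) and 2 CCAAT boxes. The Arrdc4 window held 1 E-box (6.02% of windows) and 6 CCAAT boxes, a number reached in 19 windows (0.0578%). The Arrdc3 window held 1 CCAAT box, as 33.8% of windows hold at least 1, and no other match. All 5 members matched a RefSeq window. The Arrdc2 window held 3 CCAAT boxes and the Arrdc1 window none of the 5 motifs, and TGACGTCA (1.55% of windows) was found in no member's window. A match is a string of letters in the window and not a measured binding site.

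At rest, Txnip and Arrdc1 were the most abundant members and Arrdc2 the least. In WT vehicle libraries the level per kilobase was 24.7 ± 6.80 CPM for Txnip (SD, n = 3, as for the other values here) and 21.5 ± 2.50 CPM for Arrdc1. It was 6.47 ± 0.383 CPM per kilobase for Arrdc4, 6.33 ± 0.965 for Arrdc3 and 3.20 ± 0.610 for Arrdc2. After LPS in WT, Arrdc4 stood at 18.5 ± 1.23 CPM per kilobase, close to Arrdc1 at 19.8 ± 0.414, while Arrdc3 at 1.69 ± 0.215 was beside Arrdc2 at 2.01 ± 0.120. Arrdc4 and Arrdc3 were alike at rest, and after LPS Arrdc4 was among the abundant members and Arrdc3 among the scarce ones.

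**Figure D1:**
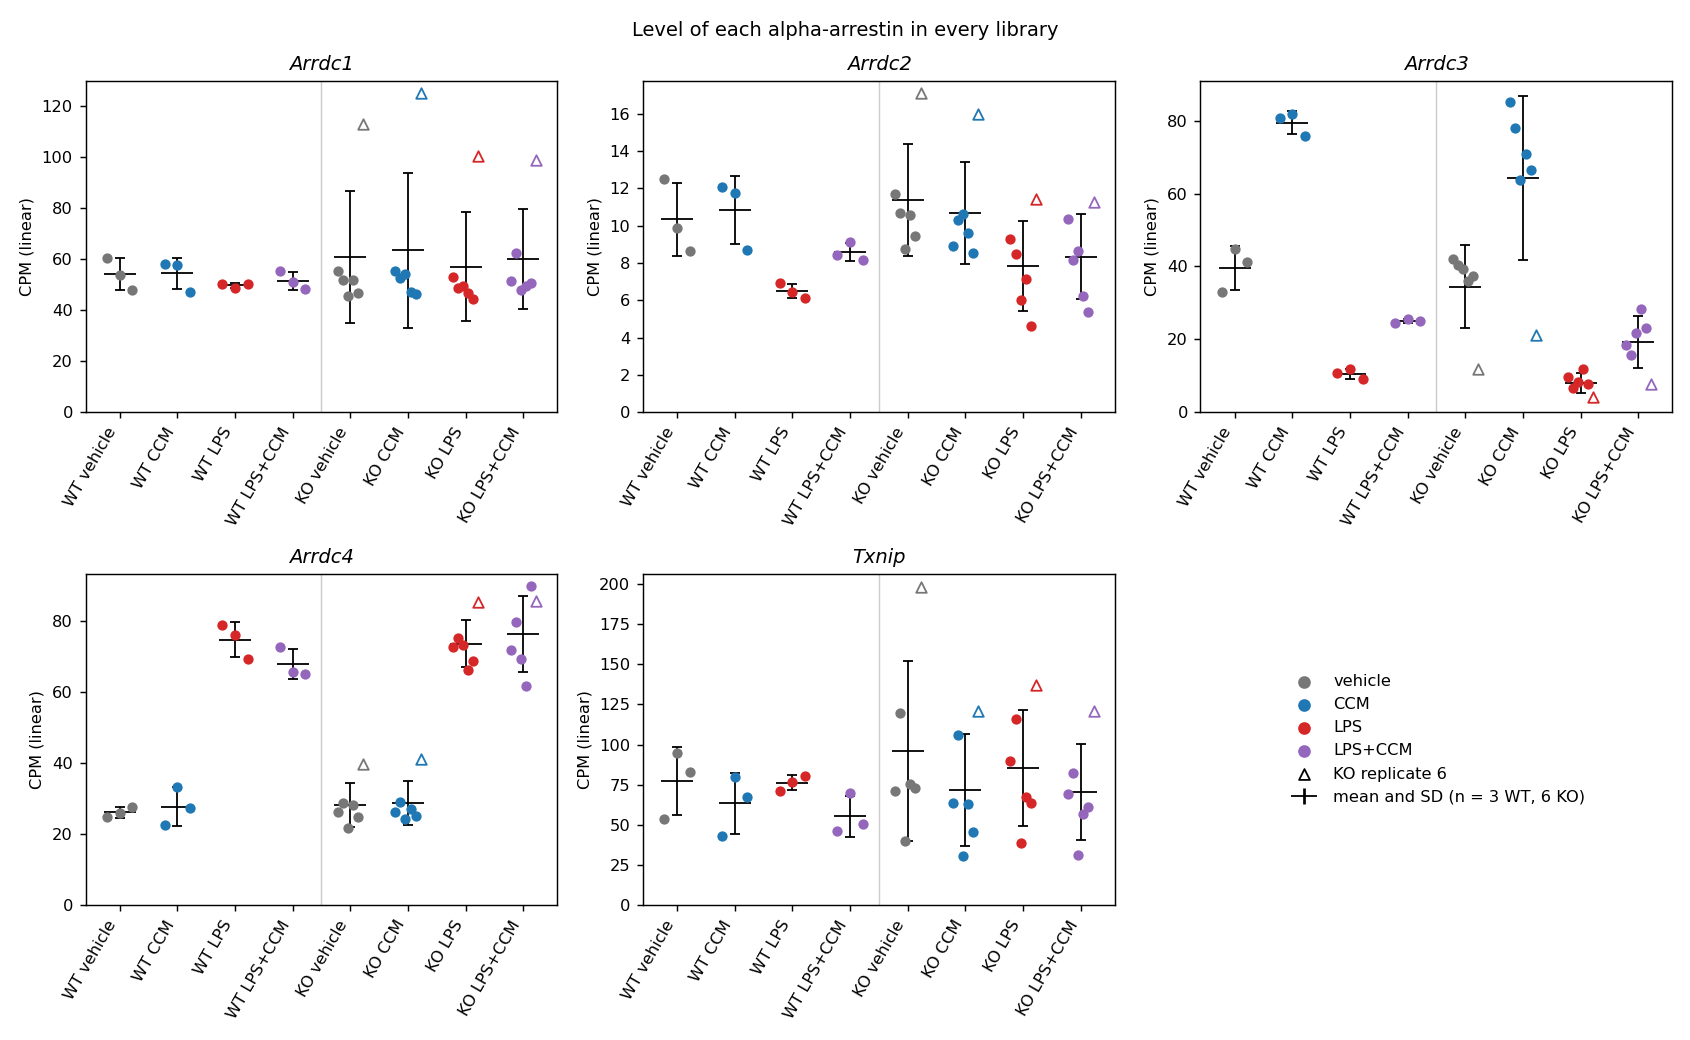
CPM (linear axis from 0) of each member in all 36 libraries by group, with the mean and SD (n = 3 WT, 6 KO) as black bars and KO replicate 6 as open triangles. Arrdc3 is higher with CCM and lower with LPS, Arrdc4 is higher with LPS, and KO replicate 6 lies outside its group for Arrdc1 in all 4 treatments.

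LPS lowered Arrdc3 and Arrdc2, raised Arrdc4 and left no detected change in Arrdc1 or Txnip in WT macrophages. The question here was how the family responds to the inflammatory stimulus without CCM. By edgeR's quasi-likelihood test with Benjamini-Hochberg adjustment, 3 of 5 members passed an adjusted p of 0.05 in WT (1 higher, 2 lower), where 63.0% of the 14501 genes tested passed (30.6% higher, 32.4% lower), so the share of members is near that of all genes. In KO, 2 of 5 passed (1 higher, 1 lower), beside 47.1% of 13648 genes (22.4% higher, 24.7% lower). Leaving out KO replicate 6, it was 3 of 5 beside 69.4%.

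Arrdc3 was at 33.0, 44.8 and 41.1 CPM in the 3 WT vehicle libraries and at 10.7, 11.8 and 9.14 CPM with LPS. Every LPS library was below every vehicle library, as for 36% of all genes. The log2 fold change was -1.90 ± 0.133 (SE, as for all fold changes), with an adjusted p of 7.84e-07. In KO the vehicle libraries had a lowest, median and highest level of 11.97, 38.4 and 41.98 CPM and the LPS libraries of 4.09, 8.09 and 11.8 CPM. Here, too, the groups did not overlap (14.9% of genes), although the lowest vehicle library, KO replicate 6, lay just above the highest LPS library. In KO this gave a log2 fold change of -2.10 ± 0.298 (adjusted p = 5.83e-05), and -2.15 ± 0.124 without replicate 6.

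Arrdc4 moved the other way, from 24.7, 25.9 and 27.8 CPM in WT vehicle libraries to 79.0, 76.1 and 69.3 CPM with LPS. The levels in the LPS group were close to each other, and all lay above the vehicle group, as for 32.9% of all genes. The log2 fold change was 1.52 ± 0.0770 (adjusted p = 6.56e-08), a 2.87-fold higher level. In KO the lowest, median and highest levels were 21.8, 27.2 and 39.8 CPM with vehicle and 66.4, 73.1 and 85.4 CPM with LPS. This was a log2 fold change of 1.37 ± 0.144 (adjusted p = 3.67e-06), and of 1.44 ± 0.0716 without replicate 6, with no overlap between the groups (15.7% of genes).

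Arrdc2 fell from 12.5, 9.89 and 8.62 CPM to 6.91, 6.43 and 6.14 CPM in WT. All 3 LPS libraries were below the vehicle libraries, as for 36% of all genes. The log2 fold change was -0.67 ± 0.156 (adjusted p = 0.00384). With all 36 libraries in 1 fit the adjusted p was 0.059. In KO the level went from 8.77, 10.6 and 17.1 CPM (lowest, median, highest) to 4.64, 7.80 and 11.4 CPM, and the groups overlapped. There it was -0.55 ± 0.233 with an adjusted p of 0.07. It was lower with LPS in 6 of 6 same-numbered KO pairs (33.0% of genes). When replicate number entered the model as a block, the adjusted p was 0.000261, where 71.6% of genes passed. Without replicate 6 and with no block it was 0.00958.

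Arrdc1 was at 60.4, 53.8 and 47.9 CPM with vehicle and at 50.3, 48.6 and 50.4 CPM with LPS in WT. The ranges overlapped, and the log2 fold change was -0.11 with a 95% interval of -0.30 to 0.07 (adjusted p = 0.26). In KO, replicates 1 to 5 were at 45.6 to 55.3 CPM with vehicle and 44.3 to 53.2 CPM with LPS, while replicate 6 was at 113 and 100.2 CPM. Arrdc1 thus differed more between KO replicate 6 and the other KO libraries than between the treatments. In KO it was -0.10 ± 0.276 on the log2 scale (adjusted p = 0.814).

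Txnip, known to respond to glucose, had no detected change with LPS but varied widely between replicates. It was at 53.6, 94.8 and 83.2 CPM with vehicle and 71.2, 76.96 and 80.4 CPM with LPS in WT, a log2 fold change of -0.01 with an interval of -0.39 to 0.37 (adjusted p = 0.955). Without the lowest vehicle library, WT replicate 1, it was -0.21 (adjusted p = 0.0472), so that 1 library decides this call. In KO the level ran from 39.9 to 198 CPM with vehicle and from 38.4 to 137 CPM with LPS (log2 fold change -0.18 ± 0.383, adjusted p = 0.744). KO replicate 3 was the lowest and KO replicate 6 the highest Txnip library in each of the 4 treatments, and KO replicate 2 was the next highest in each.

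The ratio of Arrdc4 to Txnip per kilobase sets 2 known targets of the same factors side by side. It was 0.211 to 0.357 in WT vehicle and 0.667 to 0.858 in WT LPS libraries. In KO it was 0.155 to 0.422 with vehicle and 0.482 to 1.48 with LPS. The mean log2 ratio was higher with LPS by 1.496 in WT and by 1.512 in KO, beside log2 fold changes of 1.52 and 1.37 for Arrdc4 alone. The groups did not overlap in either genotype. The same held for Arrdc4 alone, as for 32.9% of genes in WT and 15.7% in KO in that direction. The ratio thus largely restates the difference in Arrdc4. This ratio was formed after the values were seen and is given without a test.

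The size of the LPS values depends on the scaling. The median log2 fold change over all genes tested was -0.05 in WT and in KO with TMM, and -0.47 in WT and -0.44 in KO with total counts alone. With total counts alone Arrdc3 was at -2.32 and Arrdc4 at 1.11 in WT, both with the same direction and past the threshold. Arrdc2 was then at -1.08 in WT and at -0.93 in KO, where its adjusted p was 0.000788. Arrdc1 was then lower in WT (-0.52, adjusted p = 0.000191) and Txnip at -0.43 (adjusted p = 0.0516), each close to the shift of all genes.

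**Figure D2:**
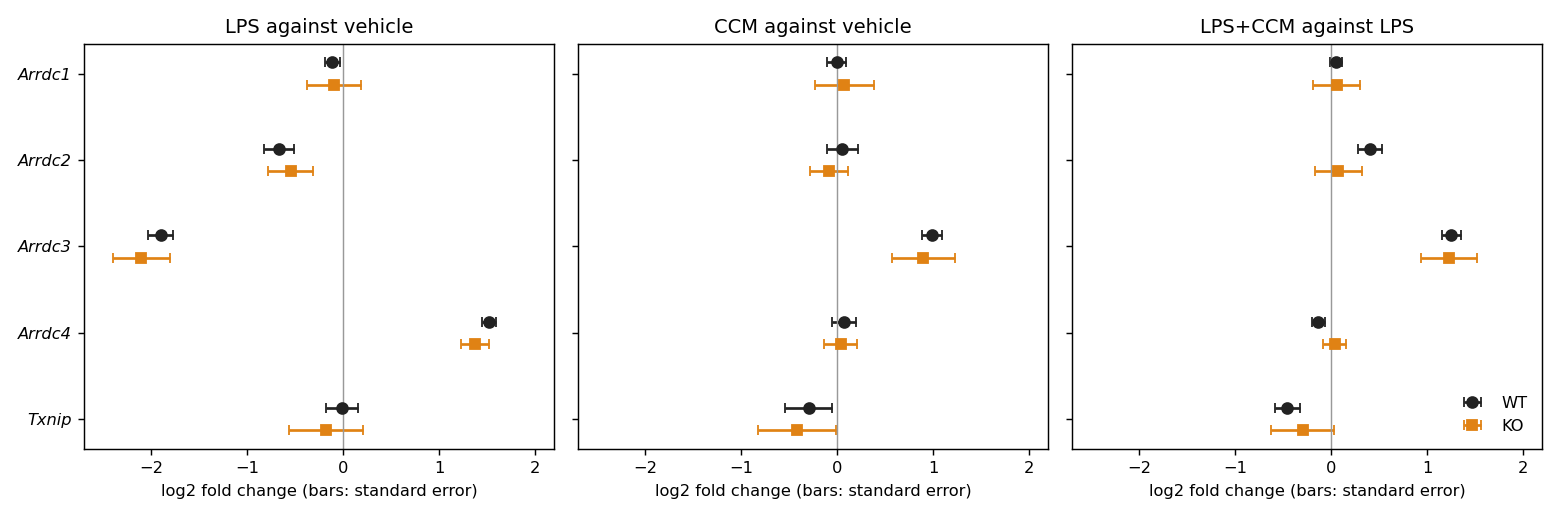
Log2 fold changes of the 5 members (points) with standard errors (bars) for LPS, CCM and CCM under LPS, in WT (circles) and KO (squares). Under LPS Arrdc3 lies near -2 and Arrdc4 near 1.5 in both genotypes, and with CCM the points other than Arrdc3 lie within 0.5 of 0.

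With CCM alone, Arrdc3 was about 2-fold higher in both genotypes, and none of the other 4 members passed the test. The comparison of CCM with vehicle asks what the compound does to resting macrophages. In WT, 0 of 4 members tested passed, beside 0.057% of 14024 genes; the count at an unadjusted p of 0.05 was also 0, and with DESeq2 it was 0. In KO, 0 of 4 passed, beside 0.0% of 13799 genes, again 0 at an unadjusted p of 0.05 and 0 with DESeq2.

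Arrdc3 was at 80.8, 81.9 and 75.7 CPM with CCM in WT, against 33.0, 44.8 and 41.1 CPM with vehicle. Every CCM library was above every vehicle library, with 1.83 to 2.45 times the level at the same replicate number and a log2 fold change of 0.99 ± 0.104. Over all genes, 9.86% had CCM libraries all above the vehicle libraries, and nothing is read from this since the CCM response chose the gene. In KO the lowest, median and highest levels were 21.1, 68.7 and 85.0 CPM with CCM, against 11.97, 38.4 and 41.98 CPM. The lowest value in each group was replicate 6, which makes the groups overlap. The ratio at the same number was nonetheless 1.62 to 2.025 in all 6 pairs, replicate 6 included at 1.765, and the log2 fold change was 0.90 ± 0.329, or 0.89 ± 0.0778 without replicate 6.

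Txnip was lower with CCM at every replicate number. In WT it was at 42.75, 79.9 and 67.4 CPM with CCM, against 53.6, 94.8 and 83.2 CPM with vehicle at the same numbers. The ranges overlapped, and each CCM library was at 0.798 to 0.844 times its same-numbered vehicle library. All 3 pairs were lower, as for 16.9% of all genes. Without a block the log2 fold change was -0.30 ± 0.242 (adjusted p = 0.714), a difference smaller than the spread between replicates. In KO the levels in order of replicate number were 71.2, 119.7, 39.9, 75.3, 73.0 and 198 CPM with vehicle and 63.9, 105.8, 30.8, 63.2, 45.7 and 121 CPM with CCM. All 6 were lower with CCM, as for 5.83% of all genes, with ratios of 0.611 to 0.897. The fit without a block gave -0.42 ± 0.404 (adjusted p = 1), and the fit blocked on replicate number gave -0.39 ± 0.0754 (adjusted p = 0.0194), where 3.11% of genes passed. With the block and without replicate 6 it was -0.33 ± 0.0681 (adjusted p = 0.0168). The summed level of the 8 neutrophil markers also ran lower with CCM, with ranges that overlapped. It was 500.5 to 538 CPM with vehicle and 323 to 515 CPM with CCM in WT, and 437 to 877 and 335 to 670 CPM in KO replicates 1 to 5. In WT the fibroblast sum was 427 to 1190 CPM with vehicle and 295.5 to 715 CPM with CCM. The B cell marker sum was 29.1 to 144.5 and 21.9 to 59.4 CPM. The medians of the macrophage, T cell and erythroid marker sums were higher with CCM in WT. The part of these sums in the Txnip values was not tested.

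Arrdc1, Arrdc2 and Arrdc4 lay close to vehicle with CCM. In WT their log2 fold changes were -0.00 for Arrdc1 (95% interval -0.23 to 0.22), 0.05 for Arrdc2 (-0.32 to 0.43) and 0.07 for Arrdc4 (-0.22 to 0.36). In KO they were 0.07, -0.09 and 0.04, with wider intervals, the widest for Arrdc1 from -0.59 to 0.74. Changes within these intervals are compatible with the data, and the bounds do not mark the smallest change the test could call.

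**Figure D3:**
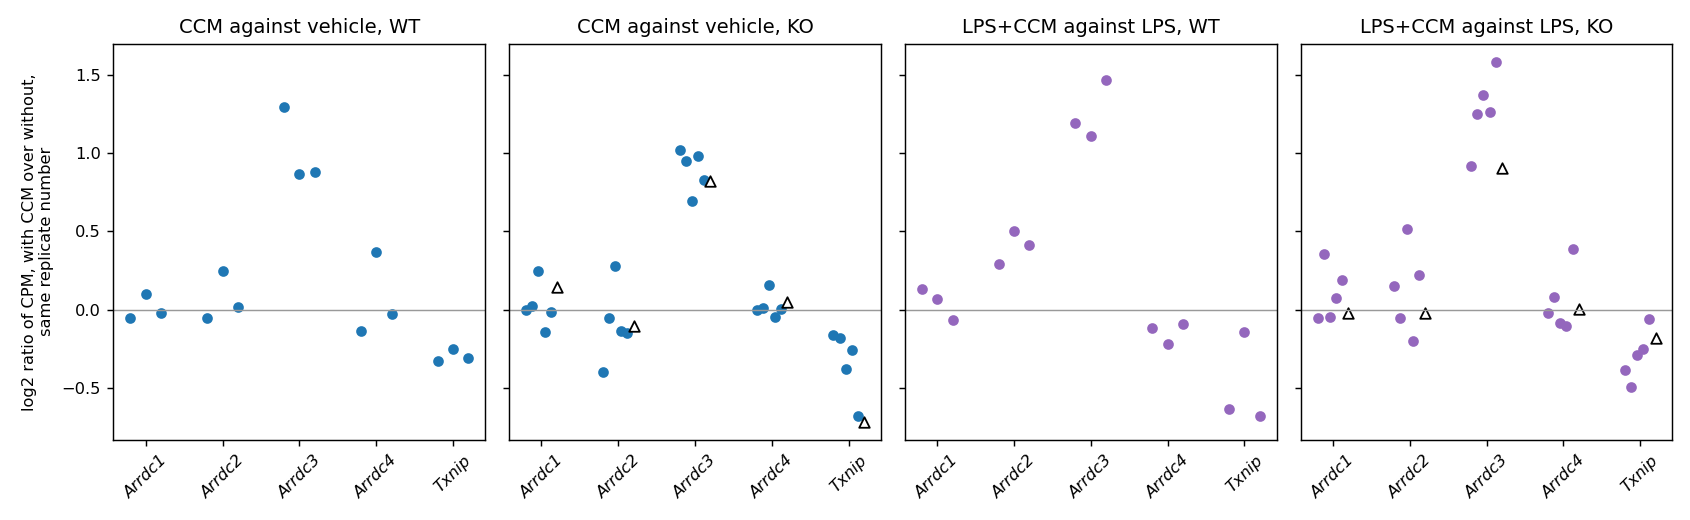
Log2 ratio of the CPM with CCM over that without CCM at the same replicate number, 1 point per number, for each member in the 4 settings (KO replicate 6 as open triangles). All 18 points of Arrdc3 are above 0 and all 18 of Txnip below it, while those of Arrdc1, Arrdc2 and Arrdc4 scatter around 0 apart from Arrdc2 and Arrdc4 under LPS in WT.

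Under LPS, Arrdc3 was higher and Txnip lower with CCM at every replicate number, and Txnip passed the test in WT but not in KO. This comparison of LPS+CCM with LPS asks how CCM acts on stimulated macrophages. In WT, 1 of 4 members tested passed, Txnip, lower, beside 11.9% of 13579 genes in either direction and 7.78% lower (2 of 4 at an unadjusted p of 0.05, 1 with DESeq2). Blocked on replicate number, 3 of 4 passed (Txnip and Arrdc4 lower, Arrdc2 higher), beside 23.7% of genes. In KO, 0 of 4 passed, beside 0.112% of 13386 genes, with 0 at an unadjusted p of 0.05 and 0 with DESeq2.

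Arrdc3 was at 10.7, 11.8 and 9.14 CPM with LPS and at 24.6, 25.5 and 25.2 CPM with LPS+CCM in WT. The 3 LPS+CCM libraries were within 1 CPM of each other and all above the LPS libraries, but still below every vehicle library. Of all genes, 15.2% had LPS+CCM libraries all above the LPS libraries, and nothing is read from this for the chosen gene. The log2 fold change was 1.25 ± 0.0980. In KO the lowest, median and highest levels were 4.09, 8.09 and 11.8 CPM with LPS and 7.65, 20.1 and 28.3 CPM with LPS+CCM. The ratio at the same number was 1.87 to 2.99, and the log2 fold change 1.23 ± 0.294, or 1.275 ± 0.185 without replicate 6. On the log2 scale the CCM difference was larger under LPS than at rest by 0.25 ± 0.151 in WT and by 0.35 ± 0.452 in KO, and it differed between genotypes by -0.10 ± 0.487 at rest and -0.01 ± 0.447 under LPS (KO minus WT). These differences are a description of the gene that CCM had chosen and are given without a test.

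Txnip was at 71.2, 76.96 and 80.4 CPM with LPS and at 45.9, 69.9 and 50.3 CPM with LPS+CCM in WT. All 3 LPS+CCM libraries were below the LPS libraries, as for 15.3% of all genes (25.3% were lower in all 3 pairs), though replicate 2 lay just below them. The log2 fold change was -0.46 ± 0.129 (adjusted p = 0.0447). The call did not hold without LPS replicate 2 (adjusted p = 0.125) or 3 (0.118), nor without LPS+CCM replicate 1 (0.104) or 3 (0.138). It was also lost with total counts alone (0.0751) and with all 36 libraries in 1 fit, and with the block the adjusted p was 0.000226. In KO the levels in order of replicate number were 90.0, 116, 38.4, 67.55, 63.7 and 137 CPM with LPS and 69.1, 82.4, 31.5, 56.8, 61.3 and 121 CPM with LPS+CCM. Again all 6 were lower, as for 9.91% of all genes, with ratios of 0.711 to 0.962 and a log2 fold change of -0.30 ± 0.328 (adjusted p = 0.862).

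Over the 4 settings, Txnip was lower with CCM in 18 of 18 same-numbered pairs, as were 96 of the 12740 genes tested in all 4 (0.754%). The 4 settings share no control libraries. For CCM in WT and LPS+CCM in KO not every same-numbered pair was alike. The correlation between libraries of the same number, around the group means, ran from -0.0034 to 0.559 for CCM in WT. It ran from -0.186 to 0.887 for LPS+CCM in KO. In these settings 2 of 3 and 4 of 6 libraries with CCM correlated best with the library of their own number. Pairs there were therefore taken as matches by number only. Arrdc3 was higher in 18 of 18, a description for the gene that CCM had chosen, as were 111 genes (0.871%). The neutrophil marker sum was also lower with CCM in WT under LPS, at 331 to 397 CPM against 391 to 433 CPM, but not in KO replicates 1 to 5, at 327 to 731 against 328 to 558 CPM. Its part in the Txnip values was not tested. The size of the difference in Txnip was not shown to depend on genotype or LPS. The genotype difference (KO minus WT) was -0.13 ± 0.644 at rest and 0.18 ± 0.506 under LPS, and the LPS difference -0.17 ± 0.314 in WT and 0.14 ± 0.546 in KO, with adjusted p from 0.872 to 1. These intervals are wide, the narrowest from -0.85 to 0.50.

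Arrdc2, lowered by LPS, was at 6.91, 6.43 and 6.14 CPM with LPS and at 8.45, 9.10 and 8.17 CPM with LPS+CCM in WT. The groups did not overlap, as for 15.2% of all genes in that direction. The log2 fold change was 0.41 ± 0.126, with an adjusted p of 0.0641 without and 0.0232 with the block, and of 0.0269 with total counts alone. In KO it was 0.07 ± 0.241 (adjusted p = 0.938), and 3 of 6 pairs were higher. The difference between genotypes was -0.31 with an interval from -1.07 to 0.44 (adjusted p = 1), and the LPS by CCM difference in WT was 0.34 with an interval from -0.13 to 0.81 (adjusted p = 0.552), so neither was shown. Arrdc4 was at 79.0, 76.1 and 69.3 CPM with LPS and 72.9, 65.6 and 65.3 CPM with LPS+CCM in WT, slightly lower at each number (log2 fold change -0.14 ± 0.0678, adjusted p = 0.241, with the block 0.0375). In KO Arrdc4 was at 0.03 ± 0.118, and Arrdc1 was at 0.05 in WT and 0.06 in KO.

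No member was shown to differ between the genotypes. KO was compared with WT in vehicle libraries, where 0 of 5 members passed, beside 0.0% of 14385 genes, with 0 at an unadjusted p of 0.05 and 0 with DESeq2. The log2 fold changes ran from -0.19 for Arrdc3 to 0.34 for Txnip, and the widest interval, that of Txnip, from -0.66 to 1.33. Without KO replicate 6 the mean of Txnip was 75.8 ± 28.5 CPM (SD, n = 5) in KO against 77.2 ± 21.2 CPM (n = 3) in WT, and that of Arrdc3 39.0 ± 2.40 against 39.7 ± 6.05 CPM. The response to LPS differed between genotypes by -0.18 ± 0.439 for Arrdc3, -0.13 ± 0.208 for Arrdc4, 0.14 ± 0.354 for Arrdc2 and -0.15 ± 0.586 for Txnip, each with an adjusted p of 1. In the 5 interaction tests 0 members passed, also with 0 at an unadjusted p of 0.05 and 0 with DESeq2. The share of genes that passed was 2.09% for LPS by CCM in WT, 0.00685% for the same in KO and 0.0% for the 3 tests of genotype.

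In order of mean level over the 8 groups, Arrdc3 ran from WT CCM (79.5 CPM) through KO CCM (64.2), WT vehicle (39.7), KO vehicle (34.5), WT LPS+CCM (25.1), KO LPS+CCM (19.2) and WT LPS (10.6) to KO LPS (8.09). Over all libraries the neighbours WT and KO CCM, and WT and KO vehicle, did not differ beyond their pooled SD, and all neighbouring ranges overlapped. Without replicate 6 the order was the same, and the ranges of KO CCM and WT vehicle, of KO vehicle and WT LPS+CCM, and of KO LPS+CCM and WT LPS did not overlap. Arrdc4 fell into 2 sets, the 4 groups with LPS at means of 67.9 to 76.4 CPM and the 4 without at 26.1 to 28.8 CPM, with no overlap between the sets. The groups of Arrdc1 (49.8 to 63.5 CPM) and of Txnip (55.4 to 96.2 CPM) could not be ordered, since no neighbours differed beyond their SD. For Arrdc2, over all libraries, only WT vehicle (10.3 CPM) and its neighbour WT LPS+CCM (8.57 CPM) differed beyond it, and their ranges overlapped. Without replicate 6 it was instead KO CCM (9.60 CPM) and WT LPS+CCM.

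Across the 36 libraries Arrdc3 and Arrdc4 ran opposite to each other, with r = -0.825 on log2 CPM, and -0.834 without KO replicate 6. For deviations from the 8 group means r was -0.71, and -0.25 without replicate 6. Arrdc4 and Txnip had r = 0.14 over all libraries and r = 0.73 within groups (0.57 without replicate 6). Within groups Arrdc1 ran against Arrdc3 (r = -0.91), a value that dropped to -0.47 without replicate 6. These libraries share treatments and replicate numbers, so the values are a description.

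**Figure D4:**
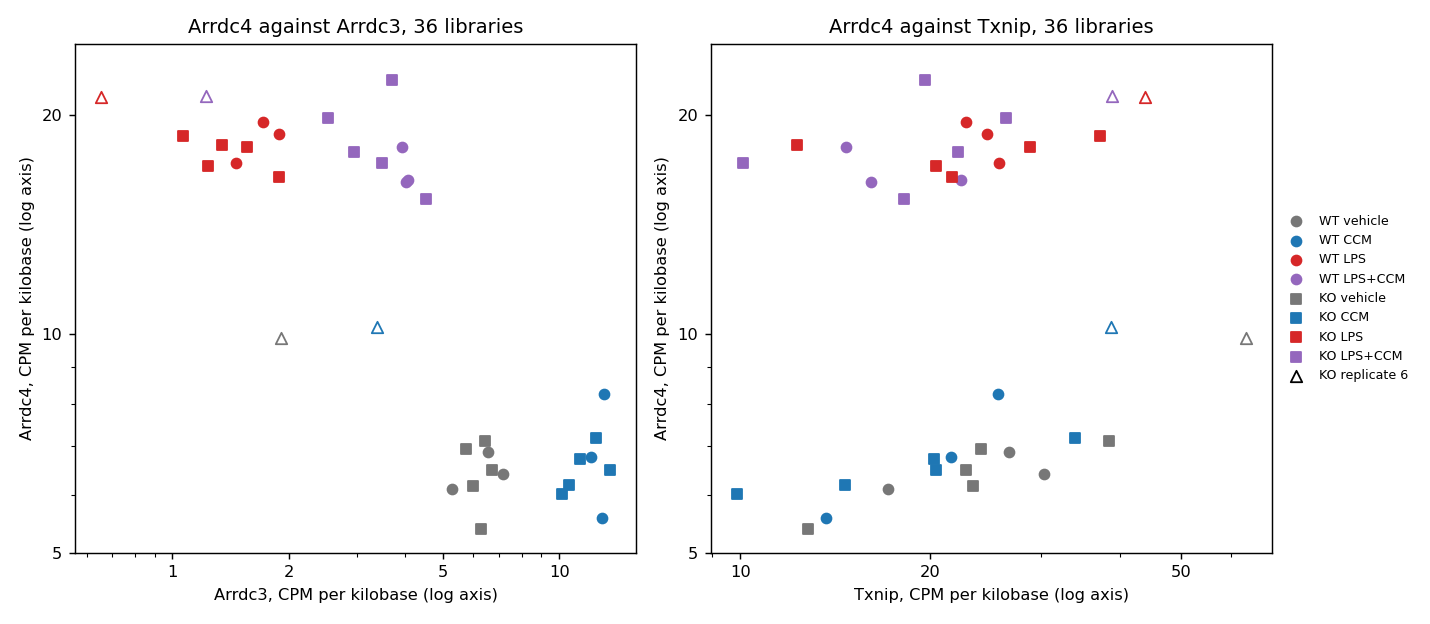
Levels of Arrdc4 against Arrdc3 (left) and against Txnip (right) in CPM per kilobase on log axes, 1 point per library, coloured by treatment (circles WT, squares KO, triangles KO replicate 6). Arrdc4 separates the libraries with LPS from those without it, every LPS+CCM library but that of KO replicate 6 has more Arrdc3 than every LPS library, and Txnip spreads within each group.

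Among 10584 protein-coding genes with a mean log2 CPM of at least 1, those most like Arrdc4 over the 36 libraries were Bcl2a1d (r = 0.989), Mthfd2 (0.987) and Batf (0.987). Bcl2a1d has near-identical copies, so its counts are uncertain. The nearest to Arrdc3 were Pcyox1 (0.94), Slc25a51 (0.94) and Ccdc125 (0.94), and to Arrdc2 Rps6ka1 (0.91), Tab1 (0.89) and Cyth4 (0.86). These r changed by less than 0.1 without KO replicate 6. For Arrdc1 the nearest were Tmem259, Usp5 and Shkbp1 at 0.963, 0.957 and 0.955, and these dropped to 0.57, 0.48 and 0.49 without replicate 6. For Txnip they were Tubb5 (0.75), Tyms (0.74) and Adamtsl5 (0.74), which dropped to 0.59, 0.54 and 0.54. In deviations from the group means the leading genes were Nfkbid, Alas1 and Nab2 for Txnip (0.89, 0.85 and 0.85), Wdr53, Nasp and Pum3 for Arrdc4 (0.87, 0.86 and 0.86) and Zbtb41, Dhx40 and Dhx15 for Arrdc3 (0.95 each). They were Ap5z1, Rps6ka1 and Stard3 for Arrdc2 (0.86, 0.85 and 0.85) and Rrp7a, Elovl1 and Aldh16a1 for Arrdc1 (0.98, 0.98 and 0.97). Without replicate 6 these values were lower, at 0.741 to 0.807 for Txnip, 0.691 to 0.739 for Arrdc4, 0.719 to 0.723 for Arrdc3, 0.717 to 0.776 for Arrdc2 and 0.831 to 0.847 for Arrdc1.

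The genes that work with the alpha-arrestins were followed through 7 lists, and with LPS 39 of 53 tested genes passed in WT and 28 of 51 in KO, beside the 63.0% and 47.1% of all genes. In WT with LPS, 2 rose and 4 fell of 10 tested NEDD4-family ligases and adaptors, which add ubiquitin to arrestin-bound cargo. Those that fell were Wwp1 (158 to 28.6 CPM, log2 fold change -2.46 ± 0.0737), Nedd4l (-1.02), Ndfip1 (-0.32) and Wwp2 (-0.21), and those that rose were Smurf1 (0.40) and Smurf2 (0.25). The list's median was -0.26, beside -0.05 over all genes. In KO, 1 of 9 rose (Smurf1) and 2 fell (Wwp1 and Nedd4l), and without replicate 6 Ndfip1 fell as well. Blocked on replicate number, Ndfip1 (-0.25), Wwp2 (-0.17) and Nedd4 (-0.35) were also lower in KO, and Nedd4 (-0.45) in WT. Smurf1 lost its call in KO with total counts alone (0.13, adjusted p = 0.599). Itch, at 0.04 in WT, and Ndfip2, at 0.03, did not pass. Of 4 ESCRT partners of Arrdc1 in vesicle budding, Pdcd6ip (0.39), Vps4b (0.31) and Vps4a (0.26) rose in WT and Tsg101 (0.08) did not pass; in KO 0 of 4 passed (1 at an unadjusted p under 0.05, 0 with DESeq2), 3 of 4 with the block (Pdcd6ip, Vps4b and Vps4a, higher) and 4 of 4 without replicate 6. With total counts alone Smurf1, Smurf2, Pdcd6ip, Vps4a and Vps4b had values below 0 in WT and did not pass, and the counts were then 0 higher and 7 lower NEDD4-family genes and 0 higher and 1 lower ESCRT gene.

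Of 5 tested membrane proteins that alpha-arrestins are known to sort, 3 rose and 1 fell with LPS in WT. Slc11a2, an iron transporter, went from 56.5 to 274 CPM (2.29 ± 0.0671), Slc2a1, the glucose transporter GLUT1, from 80.0 to 191 CPM (1.26) and Notch1 from 75.3 to 200.5 CPM (1.41), while Insr, the insulin receptor, fell (-0.75). In KO these 4 genes passed in the same directions. The median of the list was 1.26 in WT and 1.27 in KO, beside -0.05 over all genes in each. Notch1 did not pass in KO with total counts alone (adjusted p = 0.175).

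Of the 10 genes of the thioredoxin system, to which Txnip binds, 5 rose and 2 fell with LPS in WT. Txn1, thioredoxin itself, went from 241 to 557 CPM (1.22 ± 0.0622), its reductase Txnrd1 from 363 to 1442 CPM and the peroxiredoxin Prdx5 from 233 to 2131 CPM (3.20). Prdx1 (1.37) and Prdx2 (0.37) rose, and Txnrd2 (-0.60) and Txnrd3 (-1.15) fell. In KO 4 rose (Prdx1, Prdx5, Txnrd1 and Txn1) and 1 fell (Txnrd3). With the block it was 5 and 2, and without replicate 6 it was 5 and 3. With total counts alone Prdx2 did not pass in WT (-0.04), and 4 genes rose and 5 fell. With CCM alone, 0 of 10 passed in WT (2 at an unadjusted p under 0.05, 1 with DESeq2) or in KO (0 and 0). Txnrd1 went from 363 to 461 CPM in WT (0.33 ± 0.0563, adjusted p = 0.0857) and differed by 0.29 in KO (adjusted p = 1). With the block in KO, Txnrd1 (0.27, adjusted p = 0.0246) and Prdx1 (0.17, 0.0348) were higher.

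Of the 8 genes in the list for the MondoA, ChREBP and Mlx network, 7 were tested, and all 7 passed with LPS in WT. Mlxipl, which encodes ChREBP, was not among those tested. Max (63.0 to 176 CPM, 1.49), Mxd1 (1.57), Mlx (0.92) and Mlxip, which encodes MondoA (0.38), rose, and Mxd4 (-2.89), Myc (-1.51) and Mnt (-1.09) fell. In KO 3 rose and 3 fell, and Mlxip was at 0.27 (adjusted p = 0.241, with the block 0.000859). Mlxip did not pass in WT with total counts alone (-0.03). Under LPS, Max (-0.41) and Mxd1 (-0.55) were lower and Mxd4 (0.44) higher with CCM in WT. In KO Mxd1 was lower (-0.69, adjusted p = 0.0431), a call lost with total counts alone (0.17).

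Of 11 FOXO factors and targets, 3 rose and 5 fell with LPS in WT, with the largest fall in Sesn1 (92.95 to 10.6 CPM, -3.12 ± 0.0892). Foxo4 (-1.35), Foxo3 (-1.32), Irs2 (-0.58) and Foxo1 (-0.57) fell, and Gadd45a (0.44), Bcl6 (0.28) and Ccng2 (0.25) rose, none of the latter 3 past the threshold with total counts alone. In KO 1 rose (Gadd45a) and 4 fell (Sesn1, Foxo4, Foxo3 and Foxo1), and it was 3 and 6 with the block or without replicate 6. Gadd45a lost its call in KO with total counts alone (0.06, adjusted p = 0.652). Under LPS, Sesn1 (0.63) and Foxo3 (0.26) were higher and Ccng2 (-0.35) lower with CCM in WT, where Foxo3 had an adjusted p of 0.0476, and of 0.0515 with RLE factors. Of 6 tested relatives with the arrestin fold, Arrb1, a beta-arrestin, fell with LPS in WT from 187 to 58.5 CPM (-1.67 ± 0.0910), and Vps26b fell (-0.30), while Vps26a (0.49) and Sag (1.53, at under 1 CPM) rose. Arrb2, the other beta-arrestin, was at 0.05 and Dscr3 at -0.16, and neither passed. In KO, of 5 tested, Arrb1 (-1.77), Vps26b (-0.34) and Dscr3 (-0.21) fell and Vps26a (0.41) rose. With RLE factors Vps26b (adjusted p = 0.0523) and Dscr3 (0.0817) did not pass there. With total counts alone Vps26a passed in neither genotype, Sag did not pass in WT, and Arrb2 was lower in both (-0.36 in WT, -0.30 in KO). Under LPS, Arrb1 (0.42) and Arrb2 (0.22) were higher with CCM in WT.

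Apart from these, in WT under LPS+CCM only Notch1 (-0.60) of the cargo list passed, and 0 genes of the NEDD4, ESCRT and thioredoxin lists did (1, 1 and 3 at an unadjusted p under 0.05, and 0, 0 and 1 with DESeq2). Blocked on replicate number, Prdx1 (0.17, adjusted p = 0.000366), Prdx3 (0.16, 0.0422), Insr (0.22, 0.0368) and Dscr3 (0.16, 0.0168) were higher in this comparison. Prdx5 (-0.16, adjusted p = 0.000355), Vps4b (-0.12, 0.0307), Irs2 (-0.35, 0.00137), Gadd45a (-0.20, 0.00773) and Cdkn1b (-0.26, 0.0496) were lower with the block. In KO under LPS+CCM Mxd1 was the only list gene of 52 that passed. In resting cells with CCM, 0 of 52 list genes passed in WT (8 at an unadjusted p under 0.05, 2 with DESeq2) and 0 of 51 in KO (1 and 0), by edgeR's quasi-likelihood test without a block. With the block in KO, Gadd45a (0.22, adjusted p = 0.038), Cdkn1b (0.23, 0.04) and Foxo4 (0.21, 0.0478) were higher and Sesn1 (-0.29, 0.0131) lower, beside Txnrd1 and Prdx1 above. Between KO and WT with vehicle 0 of 53 passed (1 and 0).

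**Figure D5:**
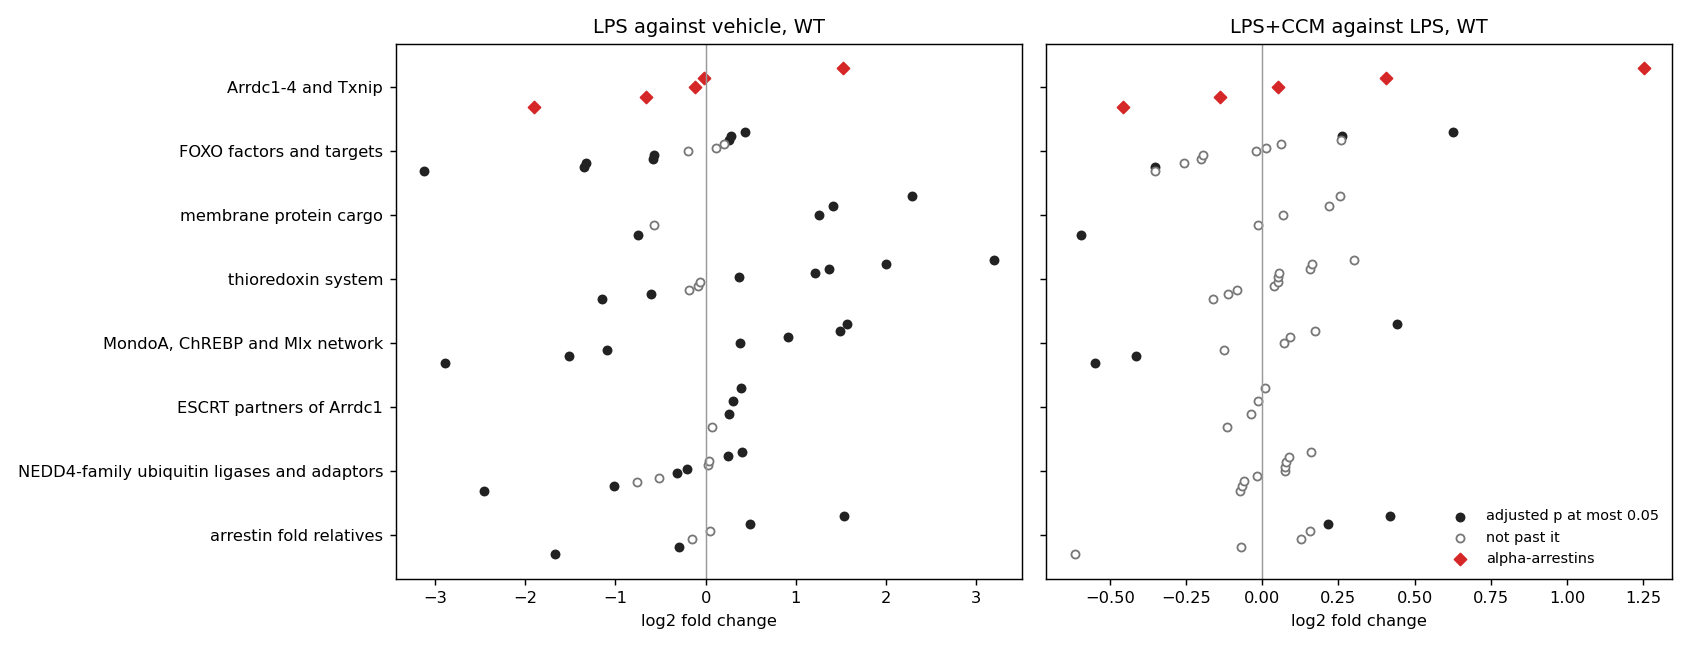
Log2 fold changes of the genes in the 7 lists and of the 5 members (diamonds), with LPS (left) and with CCM under LPS (right) in WT. Filled circles passed an adjusted p of 0.05 and open circles did not. The right axis is narrower, and there Arrdc3 at 1.25 is the point farthest from 0. Nothing is read from its place there, since the CCM response chose the gene.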

How the data were processed

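Poly(A) RNA of 36 BMDM libraries was sequenced as paired ends. Per the submitters' processing notes and the study's methods, the authors used fastp for trimming, HISAT2 2.0.5 for alignment to mm10 and featureCounts 1.5.0-p3 for counting. The deposited table holds raw whole-number counts per gene and a gene length, and 0 of its columns were left out. The annotation release is not given in the sources used here. All 5 members had the coordinates of GENCODE M21 (GRCm38).

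A separate edgeR 4.0.16 model was fitted for each of 12 comparisons in R 4.3.3 (filterByExpr, TMM, glmQLFit, glmQLFTest, 2-sided), with Benjamini-Hochberg adjustment over all genes tested and a threshold of 0.05. All 5 members passed the low-count filter in each comparison. Log2 levels used a prior count of 2. The scripts were tested on simulated data. The members and lists were chosen with earlier results of these data known. Named genes are the members, every called list gene, up to 4 other abundant genes per list and the 3 genes most like each member; 1 list gene is not reported here by name.

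Alternatives were DESeq2 1.42.0, RLE factors, total counts alone, keeping every gene with at least 1 count, a block on replicate number, 1 fit of all 36 libraries, and leaving out each replicate. The block without KO replicate 6 and the list counts under other settings were chosen after seeing the data. Nothing states that a replicate number marks the same mouse across treatments. Libraries of the same number were taken as pairs where every same-number correlation (of residuals around the group means) exceeded 0.1. It was 0.435 to 0.923 for CCM in KO, 0.211 to 0.451 for CCM under LPS in WT, 0.114 to 0.224 for LPS in WT and 0.346 to 0.906 for LPS in KO. In the 2 KO comparisons libraries with different numbers had medians of 0.357 and 0.285. A member drew 48 to 2789 counts per library, out of totals of 13469262 to 28288923.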

Additional observations from a re-analysis of the deposited data

Results flagged for a closer look

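In 9 of 20 KO groups of 6 libraries examined (5 members in 4 treatments), 1 library lay farther from the others than Dixon's 95% critical value allows, and all 9 were KO replicate 6. Chance alone gives about 1 in 20 groups, and groups of the same library are not independent. Arrdc1 was at 113.0 CPM with vehicle (others 45.55 to 55.27), 125.1 with CCM (46.28 to 55.36), 100.2 with LPS (44.25 to 53.16) and 98.91 with LPS+CCM (47.9 to 62.43). Arrdc2 was at 17.12 CPM with vehicle (others 8.765 to 11.7) and 15.98 with CCM (8.537 to 10.65). Arrdc3 was low, at 11.97 CPM with vehicle (others 35.89 to 41.98) and 21.14 with CCM (63.7 to 85.03). Arrdc4 was at 41.18 CPM with CCM (others 24.33 to 29.04). Neutrophil and T cell marker sums were highest in the same libraries, and their part in these values was not tested.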

How the results depend on the processing

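The block counts of members called were 1 for CCM in WT and 1 in KO (1 also without KO replicate 6), against 0 in each without a block. Over all genes the block called 255 of 14024 in WT and 429 of 13799 in KO, against 8 and 0. Without KO replicate 6 it called 729 of 13899. Under LPS+CCM in WT the count of members was 1 (11.9% of genes), and 3 with the block (23.7%). It was 0 with all 36 libraries in 1 fit (17 of 15720 genes) and 0 to 1 with a library left out. For CCM in WT and LPS+CCM in KO not every same-numbered pair correlated above 0.1. The block there gave Txnip -0.31 (adjusted p = 0.0379) and -0.29 (0.0589). The block also moved the calls given beside the results and no other member call. No paired analysis was possible because WT and KO libraries came from different mice, for KO against WT.

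Signs turned in 14 results, whose values as reported or when turned were at most 0.337. Txnip with LPS in WT was 0.0242 with RLE factors, 0.0181 with the block and 0.0146 with DESeq2, and Arrdc1 with CCM in WT was 0.0098 in the fit of all 36 libraries. With 1 library or number left out, the values ran as follows. With CCM in WT they were -0.0827 to 0.0817 for Arrdc1, -0.0620 to 0.21 for Arrdc2 and -0.0827 to 0.20 for Arrdc4. With LPS+CCM they were -0.0074 to 0.0936 for Arrdc1 in WT, and in KO -0.0013 to 0.11 for Arrdc1, -0.0042 to 0.12 for Arrdc2 and -0.0357 to 0.0614 for Arrdc4. For Txnip with LPS in WT they were -0.21 to 0.17. For KO against WT they were -0.10 to 0.29 for Arrdc1, -0.0074 to 0.32 for Arrdc2, -0.0068 to 0.20 for Arrdc4 and -0.0247 to 0.51 for Txnip. Txnip ran from -0.0228 to 0.27 for LPS by CCM in KO and from -0.32 to 0.0109 for genotype by LPS. The cause was not tested.

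With total counts alone, mean levels in WT were 63.4 (vehicle), 63.0 (CCM) and 44.1 CPM (LPS) for Arrdc1, 5.75 (LPS) and 8.04 (LPS+CCM) for Arrdc2, and 46.7 (vehicle), 92.1 (CCM) and 23.5 (LPS+CCM) for Arrdc3. They were 30.7 (vehicle) and 66.25 (LPS) for Arrdc4, 67.5 (LPS) for Txnip, and 63.2 for Arrdc4 in KO with LPS. Calls over all genes went from 4441 higher and 4698 lower to 2551 and 8060 for LPS in WT, from 3060 and 3373 to 1825 and 5708 in KO, and from 564 and 1057 to 1539 and 733 for LPS+CCM in WT.

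Calls over all genes for CCM in WT were 8, against 255 with the block, 247 with DESeq2, 377 without the filter, 0 in 1 fit of all libraries and 0 to 16 with a library left out. For CCM in KO they were 0 (333 at an unadjusted p of 0.05), against 429, 24, 0 and 14, and 141 without replicate 6. For LPS+CCM in KO they were 15, against 777, 180, 10 and 285, and 170 without replicate 6, and 0 without replicate 1 or 2. For LPS+CCM in WT 1621 became 3220 with the block and 17 in 1 fit, and 893 to 1352 with a library left out. For LPS, 9139 became 5644 in 1 fit in WT, and in KO 6433 became 9774 with the block. How far the spread between replicates limited what could be detected was not tested.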
